A study of Mus musculus with 18 samples.

Results

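The liver levels of 10 mouse genes for heat shock proteins and their helpers are described here. They are Hspa1a, Hspa1b, Hspa8, Hsph1, Dnajb1, Hspb1, Hsp90aa1, Bag3, Hspd1 and Hspe1. They were chosen by name, and all 10 were found among the 19057 genes of the table. Liver mRNA was sequenced from male ICR mice, aged 10 weeks by the labels, in 6 groups of 3 libraries. Con mice had the regular diet, and A10 mice were given alginate oligosaccharide (AOS, a short-chain product of brown algal alginate) at 10 mg/kg. HS mice had a high-fat diet and streptozotocin (STZ), a toxin of insulin-producing beta cells, and HS+A10 mice had both of these and AOS at 10 mg/kg. A10-FMT and Con-FMT mice also had the high-fat diet and STZ, and in addition received gut microbiota by oral fecal microbiota transplantation (FMT). The transferred material was pooled small intestine content, from donors dosed with AOS at 10 mg/kg for A10-FMT and from undosed donors for Con-FMT. The high-fat diet and STZ are therefore common to HS, HS+A10, A10-FMT and Con-FMT. The A10 and HS+A10 groups are known from the labels alone, and the labels do not say whether the 3 libraries of a group came from 3 animals, so the p-values measure the spread between these libraries.

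Heat shock proteins are molecular chaperones that hold, fold or pass on other proteins. When unfolded proteins gather, heat shock factor 1 (Hsf1) binds heat shock elements, which are alternating repeats of the unit GAA and its complement TTC, and drives the transcription of their genes. HSP70 works in a cycle with an HSP40 that delivers the client and a nucleotide exchange factor that releases it, HSP90 matures signalling proteins and nuclear receptors, and small heat shock proteins keep unfolded chains from clumping. In liver this set responds to heat, oxidative stress and ischaemia. The set is often named cytosolic, which holds for 8 of the 10 genes: Hspd1 (HSP60) and Hspe1 (HSP10) encode the chaperonin of the mitochondrial matrix.

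The genes lie at 8 places of the genome (GRCm38, GENCODE M21). Hspa1a (chr17:34969190-34972156, minus strand) and Hspa1b (chr17:34956436-34959238, minus strand) are neighbouring copies 9951 bases apart. Hspd1 (chr1:55077835-55088243, minus strand) and Hspe1 (chr1:55088132-55091307, plus strand) stand head to head, and their annotated bodies share 112 bases. Hsph1 (chr5:149614287-149636376, minus strand) and Hspb1 (chr5:135887919-135889563, plus strand) are on chromosome 5. The others are Hspa8 (chr9:40800984-40810087, plus strand), Dnajb1 (chr8:83608193-83612653, plus strand), Hsp90aa1 (chr12:110690605-110702728, minus strand) and Bag3 (chr7:128523616-128546981, plus strand).

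The promoters were searched for heat shock element letters, since these genes are known targets of Hsf1. RefSeq windows (GRCm38.p6) from 250 bases before to 50 bases after the start site were at hand for 8 of the 10 genes, with none for Hspa8 and Hsp90aa1. Both 2-unit forms, GAANNTTC and TTCNNGAA, read the same on either strand, and an overlap of both forms holds 3 units. At least 1 form was found in 7 of the 8 genes, in Hspa1a, Hspa1b, Hsph1, Hspb1, Bag3, Hspd1 and Hspe1. By windows, 8 of the 11 of these genes (72.7%) held a form, against 15.1% of all 32851. The 3-unit overlap was found in Hsph1, Hspd1 and Hspe1, in 4 of the 11 windows (36.4%) against 0.603% of all. These windows are not separate from each other. Hsph1 has overlapping windows that hold the same matches, Hspd1 and Hspe1 share an element, and the Hspa1a and Hspa1b windows are near copies. Neither form was in the windows of Dnajb1, which says only that these letters are not in them, and a match is a description, not a shown binding site. The stretches below show the matches upstream of the start site in capitals, 5′ to 3′ along the gene. They come from chr17:34972247-34972266 for Hspa1a, chr17:34959329-34959348 for Hspa1b, chr5:149636356-149636375 for Hsph1 and chr5:135887796-135887835 for Hspb1, and from chr1:55088053-55088082 for both Hspd1 and Hspe1.
Hspa1a: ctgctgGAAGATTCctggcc
Hspa1b: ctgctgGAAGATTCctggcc
Hsph1: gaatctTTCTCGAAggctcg
Hspb1: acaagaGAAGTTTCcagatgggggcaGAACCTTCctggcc
Hspd1: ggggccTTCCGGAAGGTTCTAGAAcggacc
Hspe1: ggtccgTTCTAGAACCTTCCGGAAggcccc

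Hspa1a and Hspa1b had the same stretch at the same distance, bases -110 to -91, and their upstream windows differed at 3 of 250 bases. Hspd1 and Hspe1 share 1 element, which is read from opposite strands. In Bag3 the match lay after the start site, as did the 3-unit overlap of Hsph1, and neither is shown. The Hsph1 stretch printed is a separate 2-unit match upstream.

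By a rough estimate from 20 genes, the libraries differed little in depth. The smallest steps between low values of these genes gave relative depths of 0.952 to 1.04. The number of reads is not given in the sources used here, so no counting interval was computed. Summed hepatocyte markers were high in every library (38166 to 57733 RPKM, reads per kilobase of gene and per fixed number of mapped reads). Several libraries stood apart in ways that bear on the results. Con-FMT replicate 3 held mRNAs of pancreatic acinar cells, with all 9 markers present and summing to 19091 RPKM, against 0.17 to 3.41 RPKM in the other 17 libraries. Con replicate 3 took a middle value for 90.9% of the genes at which Con replicates 1 and 2 differed over 1.5-fold, and A10 replicate 3 did so for 90.6%, against 34.4% to 71.7% in the other 16 libraries. The tests treat the 3 libraries of a group as separate samples, which was not tested for these 2 libraries, and the n, SD and p-values of Con and A10 rest on it. Every group held a library that was lowest or highest for most of the 10 genes. HS replicate 1, Con replicate 1 and A10 replicate 1 were each lowest in their group for 9, and Con-FMT replicate 3 for 8. HS+A10 replicate 3 was highest for 10, and A10-FMT replicate 3, HS replicate 3, Con replicate 2 and A10 replicate 2 were each highest for 9. The same shares over all genes were not computed. In bulk tissue, fewer cells of a type and less RNA per cell cannot be told apart.

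Hspa1a and Hspa1b, the stress-inducible HSP70 genes that are near silent in unstressed cells, varied most among the libraries. Hspa1b measured 9.19, 50.2 and 28.4 RPKM in Con, 8.04, 32.7 and 23.7 in A10, and 9.15, 70.2 and 80.6 in HS. It measured 7.18, 7.74 and 21.7 RPKM in HS+A10, 32.1, 33.8 and 148 in A10-FMT, while Con-FMT had 94.8, 107 and 38.1. HS replicate 1 was thus as low as the lowest Con library, the other 2 HS libraries were high, and A10-FMT replicate 3 was the highest of all 18. Hspa1a ranged from 2.18 RPKM in HS+A10 replicate 2 to 55.2 RPKM in A10-FMT replicate 3, a 25.3-fold range. The Hspa1b to Hspa1a ratio stayed between 2.30 and 3.55 in all libraries. Of the 50-base words of the Hspa1a transcript, 58.8% also occur in Hspa1b and none in Hspa8, so the split of reads between Hspa1a and Hspa1b is uncertain and their sum is the safer reading.

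Hspa8, the constitutive HSP70 (HSC70), was the most abundant of the 10 per length, in RPKM, in every group mean. It measured 288, 571 and 446 RPKM in Con, 446, 463 and 434 in A10, and 429, 883 and 1068 in HS. It measured 310, 350 and 457 RPKM in HS+A10, 456, 416 and 718 in A10-FMT, while Con-FMT had 1418, 1328 and 1263. All 3 Con-FMT libraries stood above the other 15, and HS replicate 1 again sat at the level of Con.

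The cochaperones Hsph1 and Bag3 followed a similar order of libraries, and Dnajb1 did so only in part. Hsph1 (HSP110), which both holds unfolded chains and helps HSP70 exchange its nucleotide, measured 11.8, 21.7 and 16.3 RPKM in Con, 10.2, 17.2 and 14.8 in A10, and 11.1, 43.9 and 59.4 in HS. It measured 6.27, 8.76 and 13.6 RPKM in HS+A10, 12.1, 12.9 and 45.0 in A10-FMT, while Con-FMT had 85.2, 84.9 and 69.6. Its Con-FMT libraries overlapped no other group. Bag3, a nucleotide exchange factor that hands clients to autophagy, measured 10.7, 18.7 and 16.2 RPKM in Con, 10.2, 14.3 and 13.0 in A10, and 12.4, 34.3 and 40.0 in HS. It measured 9.73, 9.34 and 15.2 RPKM in HS+A10, 11.7, 12.1 and 31.6 in A10-FMT, while Con-FMT had 52.3, 53.9 and 43.6. Con-FMT was again clear of every other group. Dnajb1 (HSP40), which delivers clients to HSP70, was 5.39 to 15.6 RPKM in Con, 6.22 to 9.81 in A10 and 5.83 to 8.44 in HS+A10. Its highest value was 69.3 RPKM in A10-FMT replicate 3, where the other A10-FMT libraries had 11.2 and 10.2. Its HS libraries measured 6.28, 25.0 and 27.9 RPKM and its Con-FMT libraries 29.3, 41.7 and 15.7, so these groups overlapped.

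Hspb1 (HSP27 or HSP25), a small heat shock protein that also protects actin filaments, measured 66.6, 65.7 and 70.2 RPKM in Con, 22.2, 44.7 and 30.4 in A10, and 45.1, 127 and 116 in HS. It measured 16.9, 24.7 and 43.2 RPKM in HS+A10, 28.1, 28.1 and 88.7 in A10-FMT, while Con-FMT had 128, 106 and 102. All A10 and HS+A10 libraries lay below all Con libraries, and so did A10-FMT replicates 1 and 2, whose mice were not dosed with AOS. For A10 against Con this held for 5.27% of all genes. The share for HS+A10 against Con, which differ in diet and STZ too, was not computed. Hsp90aa1, the inducible cytosolic HSP90, measured 119, 181 and 148 RPKM in Con, 67.1, 110 and 95.6 in A10, and 90.3, 200 and 259 in HS. It measured 51.2, 75.0 and 100.01 RPKM in HS+A10, 89.7, 75.0 and 167 in A10-FMT, while Con-FMT had 270, 309 and 273. A10, HS+A10 and A10-FMT replicates 1 and 2 were below all Con libraries here too, and Con-FMT was above every other group.

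The mitochondrial chaperonin genes had small ranges. Hspd1 measured 137, 175 and 156 RPKM in Con, 141, 166 and 157 in A10, and 178, 194 and 235 in HS. It measured 197, 187 and 202 RPKM in HS+A10, 170, 140 and 166 in A10-FMT, while Con-FMT had 233, 214 and 244. The HS, HS+A10 and Con-FMT libraries lay above all Con, A10 and A10-FMT libraries. Hspe1 measured 176, 230 and 201 RPKM in Con, 165, 167 and 176 in A10, and 207, 187 and 254 in HS. It measured 167, 151 and 168 RPKM in HS+A10, 149, 146 and 170 in A10-FMT, while Con-FMT had 233, 249 and 212. Its HS+A10 and A10-FMT libraries lay below all HS, Con and Con-FMT libraries.

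**Figure D1:**
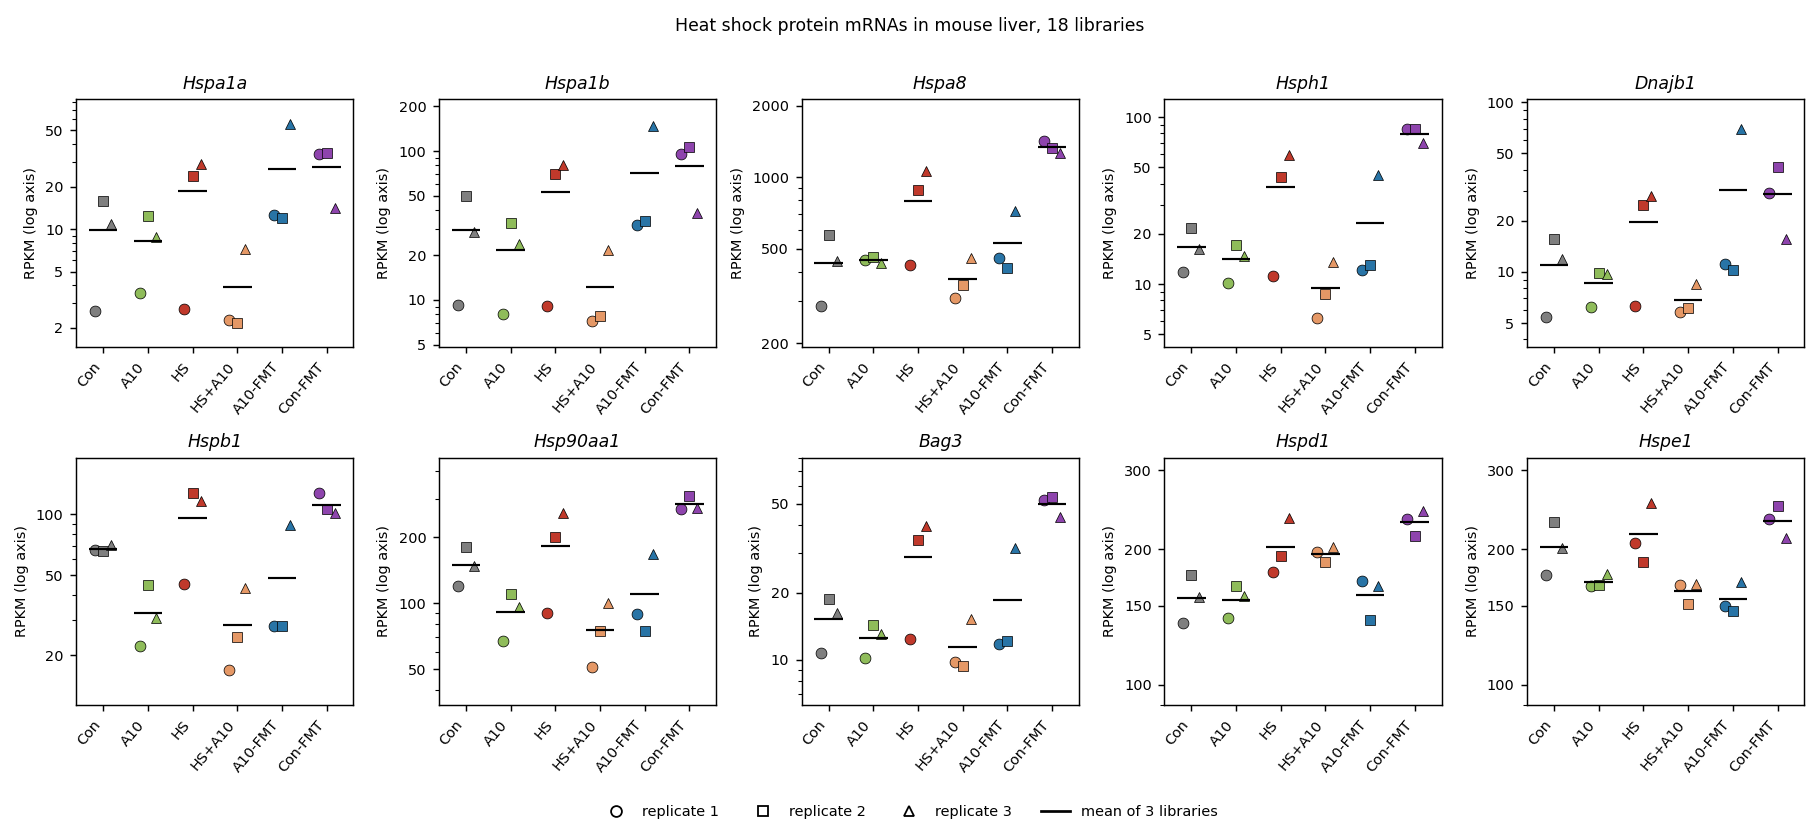
RPKM (log axis) of each of the 10 genes in every library, by group on the horizontal axis; the symbol gives the replicate number and the bar the mean of the 3 libraries. HS replicate 1 (circle) stands low and A10-FMT replicate 3 (triangle) high in the 8 cytosolic genes, while Hspd1 and Hspe1 stay between 137 and 254 RPKM.

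By group mean, HS+A10 was lowest for the 8 cytosolic genes and Con-FMT highest for 9 of the 10 genes, with Dnajb1 the exception whose A10-FMT mean of 30.3 ± 33.8 RPKM (SD, n = 3) stood beside 28.9 ± 13.0 for Con-FMT. At the low end of the order, HS+A10, A10 and Con overlapped for Hspa1a, Hspa1b, Hspa8, Hsph1, Dnajb1 and Bag3. HS overlapped Con for 9 of the 10 genes, all but Hspd1, whereas 32.6% of all genes had every HS library above every Con library. In a test for any difference among the 6 groups (limma's F-test), 7 of the 10 genes passed at an adjusted p under 0.05, against 56.1% of the 10204 genes tested. Hspa1a, Hspa1b and Dnajb1 did not, with adjusted p of 0.0801, 0.0871 and 0.101. All 10 genes passed the filter on low values, a mean of at least 1 RPKM.

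The cytosolic genes were also among the most variable between libraries of a group. The pooled SD within groups was 1.11 for Hspa1a, 1.16 for Hspa1b, 0.877 for Dnajb1 and 0.724 for Hsph1 on the log2(RPKM + 1) scale, against a median of 0.138 over all genes tested. For the 8 cytosolic genes, 95.3% to 99.5% of all genes tested had a smaller SD. Hspd1 (0.142) and Hspe1 (0.143) lay near the middle, with 53.3% and 54.2% of genes below them. Within groups the 8 varied together: deviations from the group means, over 18 libraries, had a Pearson r of 0.766 to 0.996 among their 28 pairs, with a median of 0.920. Hspd1 and Hspe1 had an r of 0.613 with each other and 0.270 to 0.714 with the cytosolic genes. These values share libraries and depth and are given as a description.

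**Figure D2:**
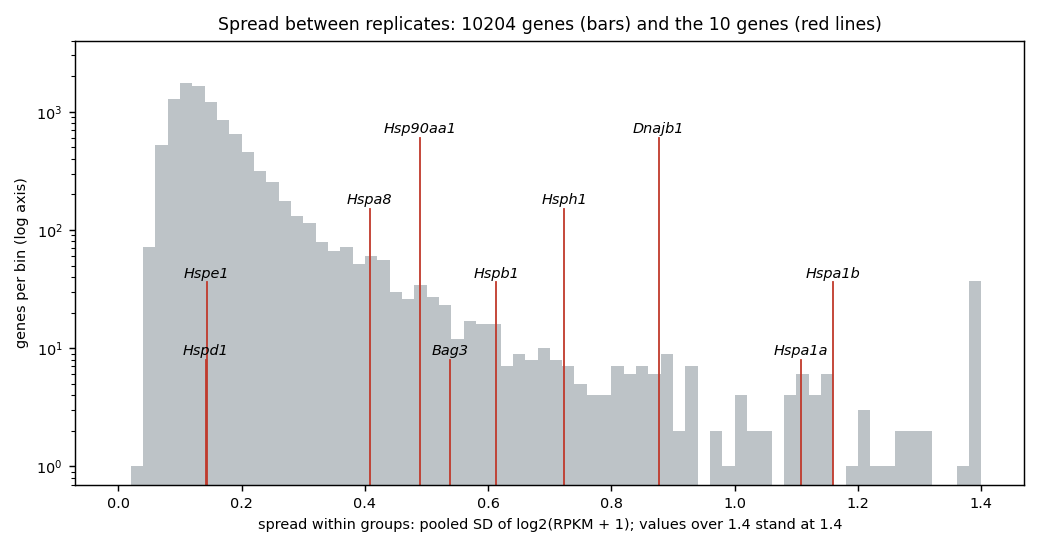
Histogram of the pooled SD of log2(RPKM + 1) within groups for 10204 genes, with the number of genes on a log axis; red lines mark the 10 genes and values over 1.4 stand at 1.4. The 8 cytosolic genes stand in the right tail, from 0.408 for Hspa8 to 1.16 for Hspa1b, while Hspd1 and Hspe1 stand at 0.142 and 0.143.

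Genes outside the set were compared with the mean standardized level of the 10 over the 18 libraries. The 5 closest were Ahsa2 (r = 0.953), related to the HSP90 activator Ahsa1, P4ha1 (r = 0.953), a collagen prolyl hydroxylase subunit, Hsp90ab1 (r = 0.953), the constitutive cytosolic HSP90, Slc5a3 (r = 0.948), a myo-inositol transporter, and Dnaja1 (r = 0.948), an HSP40. P4ha1 measured 2.71 to 4.33 RPKM in Con, 2.74, 12.1 and 14.2 in HS and 9.29 to 13.9 in Con-FMT, with HS replicate 1 at the level of Con as for the set. Cirbp, an RNA-binding protein whose mRNA rises on mild cooling, was ordered the other way. It was 10.6 RPKM in HS replicate 1, against 5.57 and 5.06 for the other HS libraries. A10-FMT replicate 3 had 6.14 RPKM against 9.91 and 9.95 for its group, while Con-FMT had 3.72 to 5.01. Rbm3, a related protein, did not follow this order. HS replicates 1, 2 and 3 had 13.6, 12.5 and 16.3 RPKM of Rbm3. A10-FMT replicate 3, with 19.2 RPKM, lay between replicate 1 (22.4) and replicate 2 (16.8). Con-FMT replicates 1, 2 and 3 had 17.7, 21.3 and 13.4 RPKM. Egr1, an immediate-early gene chosen after its values were seen, was 79.4 RPKM in A10-FMT replicate 3 against 3.13 and 2.75 in its group, and 1.83, 2.21 and 5.27 in HS. Hspa5 (BiP), the HSP70 of the endoplasmic reticulum (ER), was 232 RPKM in HS replicate 1 against 499 and 444 in the other HS libraries. What these libraries share besides their group was not tested.

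**Figure D3:**
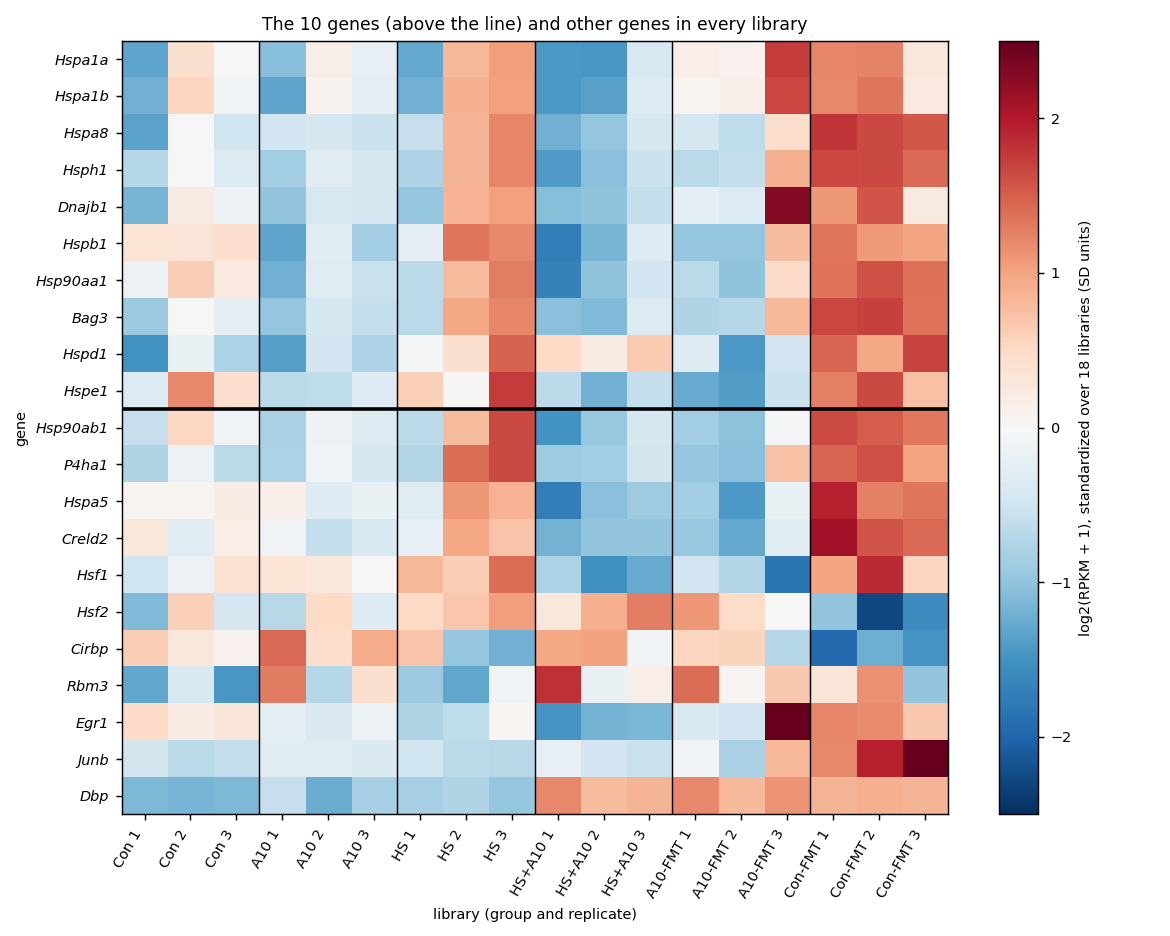
Levels of log2(RPKM + 1), standardized over the 18 libraries in SD units, for the 10 genes (above the line) and 11 others, with libraries in columns by group. HS replicates 2 and 3, A10-FMT replicate 3 and the Con-FMT libraries stand above the mean across the cytosolic genes and below it for Cirbp, while Dbp (bottom row) is high in the 9 libraries of HS+A10, A10-FMT and Con-FMT.

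The first comparison, HS against Con, asks what the high-fat diet and STZ do to these genes. Hspd1 rose, from 156 ± 18.9 to 202 ± 29.1 RPKM (SD, n = 3), and the other 9 genes did not pass the test. The rise in Hspd1 was 0.37 ± 0.12 on the log2 scale (SE, limma adjusted p = 0.0395), which is 0.23 above the median of all genes, since that median was itself shifted by 0.14. The other 9 had higher means in HS as well, by ratios of 1.07 for Hspe1 to 2.30 for Hsph1, all with overlapping libraries, but 2 of the 10 changes were below 0 without Con replicate 1 and 2 without HS replicate 3. Across all genes 15.9% were called higher, so 1 of 10 lies below the background. After median scaling no gene of the set was called, and the calls over all genes went from 1618 higher and 191 lower to 398 higher and 486 lower. Hspd1 lost its call without Con replicate 1 (adjusted p = 0.161), Con replicate 3 (0.0898), HS replicate 2 (0.0703) or HS replicate 3 (0.153), and 0 genes were then called. Without Con replicate 2, Hspa8 and Hspd1 were called, 2 in all, and without HS replicate 1, 4 were, Hspa8, Hsph1, Bag3 and Hspd1.

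Some other mitochondrial chaperones were also called higher in this comparison, whereas Hspe1, the partner of Hspd1, was not. Of 10 listed mitochondrial chaperones and proteases, 4 rose and 0 fell. The median over the list was 0.29, against 0.14 over all genes. Hspa9 (mortalin, the matrix HSP70) rose by 0.44 ± 0.09 (adjusted p = 0.00694), Lonp1, a matrix protease, by 0.34 ± 0.09 (0.0170) and Dnaja3, a matrix HSP40, by 0.34 ± 0.07 (0.00639). After median scaling 1 of the 10 was called. Among the cytosolic partners, 1 of 3 HSP70 relatives tested, 0 of 10 HSP40s, 2 of 12 HSP90 cochaperones, 2 of 7 nucleotide exchange factors and 1 of 8 subunits of the TRiC/CCT chaperonin rose, against the 15.9% of all genes, and none fell. After median scaling none of these rose and 1 HSP40 fell. Summed stellate cell and fibroblast markers were 116 to 187 RPKM in HS and 75.6 to 86.7 in Con, with 2 of 8 called higher, and their part in these results was not tested.

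HS+A10 against HS asks what AOS does in mice given the high-fat diet and STZ. Hspb1 fell from 96.2 ± 44.6 to 28.3 ± 13.5 RPKM, and Hspe1 from 216 ± 34.0 to 162 ± 9.24 (SD, n = 3). The changes were -1.70 ± 0.45 for Hspb1 (SE, limma adjusted p = 0.0345) and -0.41 ± 0.12 for Hspe1 (0.0475) on the log2 scale. These 2 calls stand against 4.37% of all genes called lower. The same 2 genes had all HS+A10 libraries below all HS libraries, as did 15.7% of all genes. The other 8 had lower means in HS+A10, with ratios of 0.209 for Hspa1a to 0.966 for Hspd1, and 1 of the 10 changes was above 0 without HS replicate 3. At an unadjusted p under 0.05 there were 6 of the 10, against 24.9% of all genes in either direction. Over all genes 301 were higher and 446 lower, which became 579 and 356 after median scaling, where Hspb1 alone of the set was called.

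The number of calls in this comparison moved most with HS replicate 1. Without it 8 of the 10 were called lower, all but Dnajb1 and Hspd1, with changes down to -2.70 on the log2 scale. Without HS replicate 2 only Hspe1 was called, and without HS replicate 3, HS+A10 replicate 1 or HS+A10 replicate 2 there were 0. Without HS+A10 replicate 3 the 2 called genes were Hspb1 and Hsp90aa1. Of 17 clock genes tested, 8 were called higher and 5 lower in HS+A10, and Dbp, a clock output gene, was at 1.17 to 2.22 RPKM in HS and 47.3 to 97.5 in HS+A10. The hour of sampling is not given in the sources used here, and its part in these differences was not tested.

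A10 against Con asks the same for AOS without diet and STZ. None of the 10 genes was called with limma, against 7, or 0.0686%, of all genes. At an unadjusted p under 0.05 there was 1 (Hspb1), against 13.9% of all genes in either direction. Hspb1 was 67.5 ± 2.41 RPKM in Con and 32.5 ± 11.4 in A10, and Hsp90aa1 was 149 ± 30.6 and 90.9 ± 21.8 (SD, n = 3). For both genes the 3 A10 libraries lay below the 3 Con libraries, as for 5.27% of all genes, but their adjusted p were 0.307 and 0.386. The other 8 genes overlapped, with ratios of 0.734 to 1.03. The count of 0 held without each library in turn, and no gene of the chaperone lists was called either. The difference between the AOS effects, (HS+A10 minus HS) minus (A10 minus Con), was called for 0 of the 10 genes with limma, against 0.0098% of all genes. Hspa8 alone had an unadjusted p under 0.05, with an adjusted p of 0.294, against 12.9% of all genes under that limit in either direction.

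The transplant comparisons ask what each pooled donor material does in HS mice. Con-FMT against HS gave 0 calls in the set with limma, against 23.6% of all genes called in either direction and 4.61% called higher. All 10 means were higher in Con-FMT, and 3 genes, Hspa8, Hsph1 and Bag3, had an unadjusted p under 0.05. Of all genes 36.1% did so in either direction, and the share of higher genes alone was not computed. The signs rest in part on HS replicate 1: without it Hspa1a, Hspa1b and Hspb1 had negative log2 changes, and the 10 changes ran from -0.12 to 0.63 in place of 0.11 to 1.33. Hspa8 was 793 ± 329 RPKM in HS and 1336 ± 77.6 in Con-FMT (SD, n = 3), with no overlap and an adjusted p of 0.0513. Hsph1 was 38.2 ± 24.7 and 79.9 ± 8.90 RPKM, also without overlap, with an adjusted p of 0.0790. With Hsp90aa1 and Bag3, 4 of the 10 genes had every Con-FMT library above every HS library, against 7.11% of all genes. Without HS replicate 3, Hspa8 and Hsph1 were called, 2 in all, and without HS replicate 1 or without Con-FMT replicate 3, which held the pancreatic mRNAs, there were 0. The median of all genes was -0.12, with 470 higher and 1943 lower, and after median scaling 858 were higher and 1240 lower and Hspa8 was called. Summed immediate-early genes ran from 267 to 389 RPKM in Con-FMT and from 101 to 131 in HS, with 8 of 12 called higher, and 12 of 17 clock genes were called, with Dbp at 51.8 to 55.5 RPKM in Con-FMT. Erythroid markers summed to 2886 to 10041 RPKM in HS and 876 to 3619 in Con-FMT, with 3 of 4 tested called lower, and stellate cell and fibroblast markers to 116 to 187 and 90.6 to 108, with 3 of 8 called lower. The part of all these was not tested.

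A10-FMT against HS gave calls for the mitochondrial genes alone. Hspd1 fell from 202 ± 29.1 to 158 ± 16.5 RPKM, and Hspe1 from 216 ± 34.0 to 155 ± 12.7 (SD, n = 3). The changes were -0.35 ± 0.12 (SE, limma adjusted p = 0.0421) and -0.47 ± 0.12 (0.0114) on the log2 scale, or -0.19 and -0.31 relative to the median of all genes, which was -0.16. Across all genes 21% were called lower, so 2 of 10 is at the background. After median scaling the set had 0 calls, and the calls over all genes went from 213 higher and 2145 lower to 639 and 516. Hspa1a, Hspa1b and Dnajb1 had higher means in A10-FMT, through replicate 3: the A10-FMT means of Dnajb1 and Hspa1a were 30.3 ± 33.8 and 26.6 ± 24.8 RPKM. Without that library all 10 changes were negative and the 2 calls were Hspb1 and Hspe1. Without HS replicate 1 there were 7 calls, all but Hspa1a, Hspa1b and Dnajb1. Without HS replicate 2 or A10-FMT replicate 2 only Hspe1 was called, and without HS replicate 3 there were 0. Summed macrophage markers were 68.4 to 115 RPKM in HS and 46.2 to 58.7 in A10-FMT, with 5 of 8 called lower, and 15 of 17 clock genes were called, 10 of them higher; their part was not tested.

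A10-FMT against Con-FMT compares mice given the pooled material of either donor group, and it gave the most calls in the set. Since the donor content was pooled before transfer, the libraries do not replicate the donors. The p-values therefore do not measure the spread between donors. In all, 7 of the 10 genes fell, Hspa8, Hsph1, Hspb1, Hsp90aa1, Bag3, Hspd1 and Hspe1, against 12% of all genes called lower. For the same 7 every A10-FMT library lay below every Con-FMT library, as for 19.4% of all genes. Hspa8 fell from 1336 ± 77.6 to 530 ± 164 RPKM, Hsph1 from 79.9 ± 8.90 to 23.4 ± 18.8, Bag3 from 49.9 ± 5.55 to 18.5 ± 11.4 and Hsp90aa1 from 284 ± 21.5 to 111 ± 49.7 (SD, n = 3). Hspb1 fell from 112 ± 13.9 to 48.3 ± 35.0 RPKM, Hspd1 from 230 ± 15.1 to 158 ± 16.5 and Hspe1 from 232 ± 18.8 to 155 ± 12.7.

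On the log2 scale the largest of these changes was that of Hsph1, -1.99 ± 0.53 (SE, limma adjusted p = 0.0164). Bag3 changed by -1.53 ± 0.39 (0.0138), Hsp90aa1 by -1.44 ± 0.36 (0.0119), Hspb1 by -1.41 ± 0.45 (0.0380) and Hspa8 by -1.37 ± 0.30 (0.00552). The mitochondrial genes changed less but with smaller errors, Hspe1 by -0.58 ± 0.12 (0.00341) and Hspd1 by -0.54 ± 0.12 (0.00489). Hspa1a, Hspa1b and Dnajb1 were not called: Hspa1b measured 32.1, 33.8 and 148 RPKM against 94.8, 107 and 38.1, and the groups overlapped through A10-FMT replicate 3. Dnajb1 had a higher mean RPKM in A10-FMT but a lower mean on the log2 scale. Over all genes 686 were higher and 1228 lower, and 1302 and 958 after median scaling, where all 10 changes of the set stayed negative and 6 were called.

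Without A10-FMT replicate 3, the library that stood high, the same 7 genes were called. Without A10-FMT replicate 1 there were 4, Hspa8, Hsp90aa1, Hspd1 and Hspe1, and without A10-FMT replicate 2 there were 3, Hspa8, Hspd1 and Hspe1, while 2 uncalled genes had changes above 0 in each case. Without Con-FMT replicate 3, the library with pancreatic mRNAs, 6 were called, and Hspb1 was lost with an adjusted p of 0.0628 and was also lost without Con-FMT replicate 1 (0.0991) or replicate 2 (0.0728). Of 17 clock genes 1 was called higher and 1 lower, and Dbp was at 48.8 to 98.8 RPKM in A10-FMT, against 51.8 to 55.5 for Con-FMT. Summed immediate-early genes were 113, 144 and 328 RPKM in A10-FMT, against 267 to 389 for Con-FMT, with 5 of 12 called lower. Neutrophil and lymphocyte markers summed to 2.12 to 3.13 RPKM in A10-FMT, against 5.37 to 8.54 for Con-FMT, and both of the 2 tested were called lower. Of the other cell type markers tested, 3 of 8 hepatocyte, 2 of 6 endothelial and 1 of 3 cholangiocyte markers were called lower and none higher. All genes had 12% called lower. No macrophage, stellate cell and fibroblast, pancreatic acinar or erythroid marker was called. The part of these in the result was not tested.

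**Figure D4:**
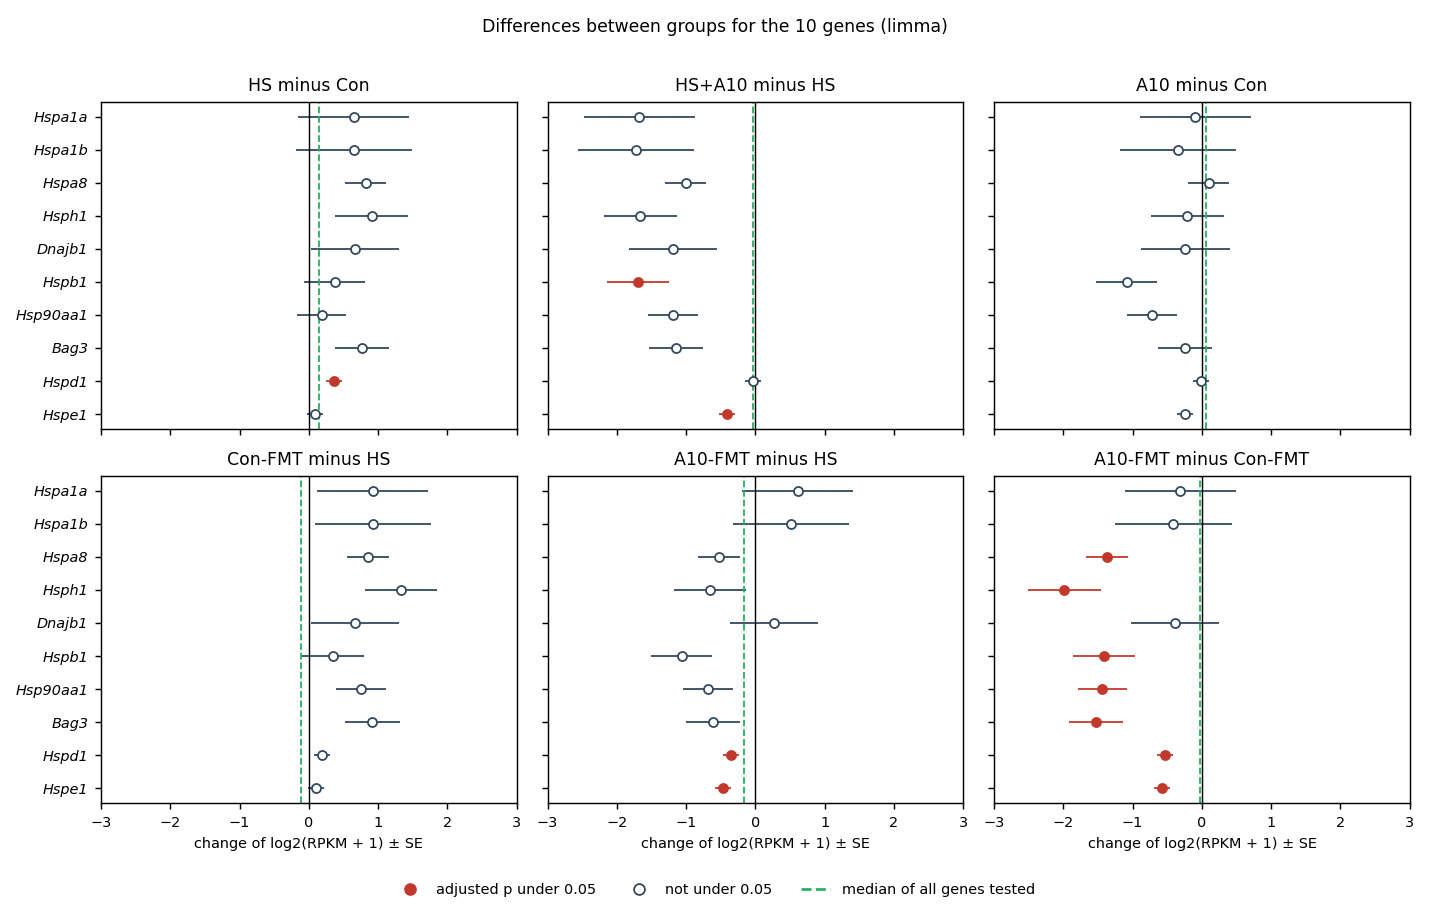
Change of log2(RPKM + 1) with its SE for the 10 genes in 6 comparisons; filled red points have an adjusted p under 0.05 (limma), and the dashed line is the median of all genes tested. In A10-FMT minus Con-FMT 7 points are filled and all 10 lie below 0, while in the other panels at most 2 are filled.

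Partners of the set were also lower in A10-FMT than in Con-FMT, though not all of them followed the set across the libraries. Of 12 HSP90 relatives and cochaperones, 8 fell and 0 rose, with a list median of -0.77 against -0.03 over all genes, of which 12% were called lower. Fkbp5, a cochaperone of steroid receptors, fell from 20.4 to 5.48 RPKM (-1.71 ± 0.16, limma adjusted p = 1.7e-05), Chordc1, an HSP90-binding protein, from 37.8 to 14.7 (-1.34 ± 0.19, 0.000322) and Stip1 (HOP), which links HSP70 to HSP90, from 77.7 to 34.2 (-1.20 ± 0.24, 0.00350). Hsp90ab1 fell from 622 ± 29.7 to 328 ± 55.4 RPKM (-0.94 ± 0.21, limma adjusted p = 0.00607). Fkbp5 was ordered unlike the set within other groups. HS replicates 1, 2 and 3 had 5.85, 4.95 and 4.71 RPKM of Fkbp5, and A10-FMT replicates 1, 2 and 3 had 5.94, 6.25 and 4.25. Of 10 HSP40s, 4 fell (2 after median scaling), among them Dnaja1 (-0.82 ± 0.25), Dnajb4 (-0.78 ± 0.26) and Dnajb2 (-0.59 ± 0.16). Of 3 HSP70 relatives tested, Hspa4l (-1.49 ± 0.21) and Hspa4 (-0.37 ± 0.08), both of the HSP110 branch, fell. Of 8 TRiC/CCT subunits, 6 fell, led by Cct3 (-0.67 ± 0.10), Cct7 (-0.61 ± 0.11) and Cct6a (-0.59 ± 0.09).

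The other lists stood as follows. Of 7 nucleotide exchange factors 2 fell, St13 (-0.49 ± 0.09) and Bag5 (-0.38 ± 0.09). Of 4 small heat shock proteins tested, Hspb8 (-1.17 ± 0.21), the partner of Bag3, and Cryab (-0.47 ± 0.13) fell, and Hspb6 rose (0.66 ± 0.19). Of 10 mitochondrial chaperones and proteases, 2 fell, Dnaja3 (-0.28 ± 0.07) and Clpp (-0.28 ± 0.08), whereas after median scaling 1 rose and 1 fell. The factors themselves went apart: Hsf1 fell from 9.05 ± 0.67 to 7.16 ± 0.56 RPKM (-0.30 ± 0.07, limma adjusted p = 0.00729), whereas Hsf2 rose from 6.19 ± 0.79 to 9.33 ± 0.96 (0.52 ± 0.12, 0.00584) and Hsf4 rose by 0.53 ± 0.12 (0.00660). Cirbp rose from 4.43 ± 0.65 to 8.67 ± 2.19 RPKM (0.81 ± 0.23, 0.0223), and Rbm3, a related protein, was 17.5 ± 3.96 and 19.5 ± 2.82 and was not called. Among the chaperone lists, the ER chaperones had the lowest median, -1.18, and all 14 of them fell, also after median scaling. Hspa5 fell from 643 ± 135 to 180 ± 63.8 RPKM (-1.87 ± 0.28, 0.000502) and Creld2, a protein of the ER induced by ER stress, from 121 to 14.3 (-3.05 ± 0.35, 6.7e-05).

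Against HS, 4 of these lists were counted as well. In HS+A10, 13 of 14 ER chaperones, 3 of 12 HSP90 cochaperones, 1 of 10 HSP40s and 2 of 8 TRiC/CCT subunits were called lower and none of these higher, against 4.37% of all genes called lower. In A10-FMT, 14 of 14, 5 of 12, 3 of 10 and 5 of 8 were called lower, against 21% of all genes, which became 8, 0, 0 and 2 after median scaling, with 1 HSP40 higher. In Con-FMT, 3 of 14 ER chaperones and 5 of 12 HSP90 cochaperones were called higher, against 4.61% of all genes, and none of these lower. After median scaling 7 and 5 were higher. Of 10 HSP40s, 1 was called higher and 1 lower as deposited, and of 8 TRiC/CCT subunits 0 were called. Over all 10204 genes 1943 were called lower. Hsf1 was 8.86 ± 0.40 RPKM in HS, and fell in HS+A10, to 7.31, 6.73 and 6.95 (limma adjusted p = 0.0192), and in A10-FMT, to 7.16 ± 0.56 (0.0120, SD, n = 3). Hsf2 and Hsf4 were not called in A10-FMT against HS. Both were called lower in Con-FMT against HS, Hsf2 by -0.58 ± 0.12 (SE, limma adjusted p = 0.00266) and Hsf4 by -0.43 ± 0.12 (0.0174). The HS libraries are the common reference of these 3 comparisons and also enter HS against Con, and the A10-FMT and Con-FMT libraries enter the donor comparison too, so the values are not independent of each other.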

How the data were processed

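The authors enriched liver mRNA with oligo(dT) beads and sequenced it on an Illumina HiSeq instrument. Their methods name SOAPaligner for mapping, whereas the submitters' processing notes name Bowtie 0.12.2 and mm10. The authors expressed gene levels as RPKM, and these RPKM values were deposited with 2 decimals for 19057 genes. Strand was not stated, so reads of overlapping genes cannot be told apart. In 26 rows the symbol had become a date, and none of these is a gene named here.

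Values were used as deposited, as log2(RPKM + 1), so changes of low genes are understated. limma 3.58.1 (R 4.3.3) fitted 1 mean per group over all 18 libraries with a variance trend, for the 10204 genes whose mean over libraries reached 1 RPKM. Tests are two-sided, and p-values were adjusted by Benjamini-Hochberg over all of these genes, with calls at 0.05. The code was tested on simulated data. Sequences came from RefSeq promoter windows and positions from GENCODE M21, read with Python 3.11.15. The 10 genes and the gene lists were chosen with earlier results of these data known. All 10 genes are named, as are at most the 3 called genes with the largest change per list and comparison, Hsf1, Hsf2, Hsp90ab1, Hspa5, Cirbp and Rbm3, and the 5 genes closest to the mean of the set. Beyond this rule, Dbp and Egr1 were named after their values were seen. Log2 changes are given for called genes only, apart from ranges. Alternatives were another pseudocount, filter, scaling, variance model and choice of libraries, a replicate block and leaving out each library. The authors' own differential tests were not used.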

Additional observations from a re-analysis of the deposited data

How the results depend on the processing

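Over 192 alternative values of the 12 changes called in the set, 135 stayed past the threshold, 57 kept their direction but not the call, and 0 changed direction. In A10-FMT minus Con-FMT, Hspa8, Hspd1 and Hspe1 were called under all 16 alternatives run. The 27 list genes picked there by the naming rule gave 429 values, of which 378 stayed past the threshold, 51 did not and 0 changed direction. Counts of called genes moved as follows. In HS minus Con (1 called), 0 were called with no filter on low values, quantile normalization, median scaling, only the 12 libraries of Con, HS, A10-FMT and Con-FMT, or only the compared groups, 2 with the replicate block, and 0 to 4 when leaving out a library. In A10-FMT minus HS (2 called), 1 was called with no filter or only the 12 libraries, 0 with quantile normalization, median scaling or only the compared groups, and 0 to 7 when leaving out a library; median scaling without HS replicate 1 gave 0 and without A10-FMT replicate 3 gave 1, both chosen after seeing the data. In Con-FMT minus HS (0 called), median scaling gave 1, the replicate block 2 and leaving out a library 0 to 2. In HS+A10 minus HS (2 called), no filter or only the compared groups gave 0, a mean of at least 5 RPKM gave 4, median scaling 1, the replicate block 5 and leaving out a library 0 to 8, with 7 under median scaling without HS replicate 1. In A10-FMT minus Con-FMT (7 called), leaving out a library gave 3 to 7 and all other settings 6 or 7. The F-test (7 called) gave 7 to 10, and A10 minus Con and the difference between the AOS effects gave 0 in every setting. The causes were not tested, beyond the fewer samples or genes of some settings. The labels do not say whether libraries with the same replicate number shared a batch, so the block rests on a number alone. Deviations of same-numbered libraries correlated at -0.0932 to 0.262, over 0.1 in 5 of 18 pairs and in no comparison in all 3. A shared batch was not tested beyond these correlations. The block changed the calls of the set in HS minus Con, Con-FMT minus HS, HS+A10 minus HS and the F-test (9 called). The number of genes called over the whole table also moved with the settings: with only the compared groups it was 702 against 1809 in HS minus Con, 846 against 2358 in A10-FMT minus HS, 777 against 2413 in Con-FMT minus HS, 76 against 747 in HS+A10 minus HS, 40 against 7 in A10 minus Con and 687 against 1914 in A10-FMT minus Con-FMT. With 3 libraries a group and no read numbers, smaller changes may have gone undetected.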
